A study of Mus musculus with 1931 samples.

Results

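The 44 genes described here act in DNA replication and cell division. They form a written list of 19 genes of S phase, called S genes below, and 25 genes of mitosis, and they were chosen by name from what they are known to do, with earlier results of these data known. All 44 were found among the 20,999 genes of the deposited table, and all 44 passed the minimum of 0.1 TP10k set on the mean of the 6 group means, as did 8508 genes in all. The measurements come from single cells of Rosette-to-Lumen (RtL) embryoids, embryo-like aggregates of 3 mouse ESC lines, and from 3 matched 2D cultures. Of 1931 wells, 1406 held a cell with at least 2500 genes above 0, and these cells were compared.

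RtL-embryoids were built from Kermit ESCs, which carry GFP under the *Oct3/4* promoter, from 5-Factor ESCs, whose 5 transgenes (*Ets2*, *Gata3*, *Eomes*, *Tfap2c* and *Cdx2*) are turned on by doxycycline (DOX), and from mCherry-labelled iGATA6 ESCs, in which it turns on *Gata6*. Aggregates were kept for 24 h in ES medium, which holds 2i/LIF, and then in reconstructed embryo medium, for which neither is listed. In the latter, DOX was present for all cells at 2 µg/ml for 3 days and absent for the last 24 h. Hand-picked structures were pooled, dissociated and sorted by GFP, mCherry or an antibody stain for CD40, a surface protein of ExE cells, onto plates 3, 4 and 5. Wells of columns 1 to 8 are called the Epi block (314 of 382 wells kept), columns 9 to 16 the VE block (315 of 383) and columns 17 to 24 the ExE block (353 of 384). The 2D cells were Kermit ESCs in 2i/LIF (142 of 317 wells) and induced cells of the other lines. 5-Factor cells were induced to iTSC in TS medium with FGF4 and heparin (141 of 283 wells). iGATA6 cells were induced to iXEN in XEN medium (141 of 182 wells). The iTSC and iXEN cells had the same course of DOX, and each culture was on 1 plate. Every condition is 1 pool or 1 culture and thus 1 sample, and plates 3, 4 and 5 are technical splits of the same pool. No p-value was computed, and differences are given with their values on the 3 plates.

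Before a cell can copy its DNA, the MCM helicase is loaded onto replication origins by *Cdc6* and *Cdt1*, and is then switched on together with *Cdc45* and the GINS complex. The sliding clamp *Pcna* holds the polymerases on the template, while ribonucleotide reductase and thymidylate synthase supply the nucleotides. Genes of this kind are transcribed around the entry into S phase, many of them under E2F factors, whereas genes of the spindle, the kinetochore and the mitotic kinases peak later, in G2 and M phase, and many are known to depend on CHR and CCAAT elements near their start sites. Pluripotent cells of the early embryo divide fast and spend much of their cycle in S phase.

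Letters of these promoter elements were looked up in RefSeq promoters of the build GRCm38.p6, from 250 bases before to 50 bases after each start site. The following stretches, each on its gene's strand, are shown because they belong to the 4 proliferation genes followed in full below (*Mcm6*, *Pcna*, *Top2a*, *Mki67*) and to members with large differences between the blocks (*Ung*, *Bub1b*, *Kif23*). Capitals mark the letters searched on both strands, which are TTTCCCGC, TTTGGCGC, TTTCGCGC and TTTGCCGC for E2F, TTTGAA and TTCGAA for CHR, and CCAAT.
Mcm6 (chr1:128359656-128359955, minus strand): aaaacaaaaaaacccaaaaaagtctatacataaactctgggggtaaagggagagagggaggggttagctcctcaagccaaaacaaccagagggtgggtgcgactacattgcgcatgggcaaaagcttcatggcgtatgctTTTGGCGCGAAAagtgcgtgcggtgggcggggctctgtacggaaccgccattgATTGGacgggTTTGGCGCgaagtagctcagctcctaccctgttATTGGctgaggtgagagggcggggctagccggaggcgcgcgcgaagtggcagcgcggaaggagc
Pcna (chr2:132253131-132253430, minus strand): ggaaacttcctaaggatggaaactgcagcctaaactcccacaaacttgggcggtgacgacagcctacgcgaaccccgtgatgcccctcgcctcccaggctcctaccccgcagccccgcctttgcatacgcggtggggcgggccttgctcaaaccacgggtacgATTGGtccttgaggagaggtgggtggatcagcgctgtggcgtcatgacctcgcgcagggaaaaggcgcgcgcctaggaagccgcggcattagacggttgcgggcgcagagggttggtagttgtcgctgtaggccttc
Ung (chr5:114130185-114130484, plus strand): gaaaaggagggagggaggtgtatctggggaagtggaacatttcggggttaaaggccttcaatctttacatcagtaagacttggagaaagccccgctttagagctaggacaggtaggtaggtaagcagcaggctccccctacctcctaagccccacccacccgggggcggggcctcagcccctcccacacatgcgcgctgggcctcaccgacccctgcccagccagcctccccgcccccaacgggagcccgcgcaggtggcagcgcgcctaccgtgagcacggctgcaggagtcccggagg
Top2a (chr11:99024140-99024439, minus strand): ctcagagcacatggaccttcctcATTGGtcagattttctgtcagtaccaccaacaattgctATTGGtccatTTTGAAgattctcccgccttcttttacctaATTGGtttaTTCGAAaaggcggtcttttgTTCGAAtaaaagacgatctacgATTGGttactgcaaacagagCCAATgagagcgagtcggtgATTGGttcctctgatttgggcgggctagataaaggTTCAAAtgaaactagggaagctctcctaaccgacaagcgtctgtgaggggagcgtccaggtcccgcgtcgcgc
Mki67 (chr7:135716330-135716629, minus strand): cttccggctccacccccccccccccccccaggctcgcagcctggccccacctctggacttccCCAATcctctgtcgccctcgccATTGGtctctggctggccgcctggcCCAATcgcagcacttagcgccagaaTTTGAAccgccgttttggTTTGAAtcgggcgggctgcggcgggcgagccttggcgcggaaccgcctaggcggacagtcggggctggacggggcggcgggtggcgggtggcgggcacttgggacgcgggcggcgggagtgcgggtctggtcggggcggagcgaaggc
Bub1b (chr2:118597961-118598260, plus strand): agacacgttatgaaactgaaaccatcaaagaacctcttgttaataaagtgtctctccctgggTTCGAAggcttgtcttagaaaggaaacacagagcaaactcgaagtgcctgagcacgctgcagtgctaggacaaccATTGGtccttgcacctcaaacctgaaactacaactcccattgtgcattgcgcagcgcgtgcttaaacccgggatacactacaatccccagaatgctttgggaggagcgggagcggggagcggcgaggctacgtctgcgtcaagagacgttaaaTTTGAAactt
Kif23 (chr9:61946750-61947049, minus strand): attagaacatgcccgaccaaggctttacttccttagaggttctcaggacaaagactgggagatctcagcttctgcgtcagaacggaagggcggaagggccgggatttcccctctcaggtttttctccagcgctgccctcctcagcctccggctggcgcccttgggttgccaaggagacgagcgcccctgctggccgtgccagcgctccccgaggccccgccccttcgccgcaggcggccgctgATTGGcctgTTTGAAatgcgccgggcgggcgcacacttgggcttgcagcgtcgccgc
*Mcm6* holds E2F letters starting 110, 106 and 47 bases before its start site, the first pair overlapping, and none of the CHR letters. In *Top2a*, *Mki67*, *Bub1b* and *Kif23*, CHR letters and CCAAT occur together and E2F letters do not. *Pcna* holds a single CCAAT on the opposite strand and *Ung* none of the letters searched. Other members with large differences between the blocks are not shown, among them *Rrm2* and *Nusap1*. The promoter of *Rrm2* holds a single CCAAT and no E2F or CHR letters, and that of *Nusap1* none of the letters searched.

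Sequences were matched for 16 of the 19 S genes (18 promoters) and 22 of the 25 mitosis genes (22 promoters). *Mcm4*, *Gins2*, *Rfc2*, *Ccna2*, *Aurkb* and *Tpx2* were not matched. E2F letters stood in 6 promoters of S genes (33.3%), those of *Mcm3*, *Mcm5*, *Mcm6*, *Mcm7*, *Cdc6* and *Cdt1*, and in 1 of mitosis genes (4.55%), that of *Cdk1*, against 2.97% of all 18704 promoters of genes in the table. The CHR letters stood in 4 S promoters (22.2%) and 18 mitosis promoters (81.8%), against 16.2% of all. CCAAT was found in 61.1% of S promoters, 81.8% of mitosis promoters and 37.6% of all, and both CHR letters and CCAAT in 16.7%, 72.7% and 6.53%. Overlapping words share letters in some promoters, as the E2F word of *Mcm7* that runs into a CCAAT does. Promoter letters had no part in how the members were listed. A match of letters is a description of the sequence and does not show that a factor binds there.

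Values are TPM, in which transcript length is corrected for, scaled to a sum of 10,000 per cell (TP10k), so that levels of different genes can be set side by side. A group mean includes cells at 0, and 2 groups are compared by the log2 ratio of their means with 0.05 TP10k added to each. A gene is said to pass the 2-fold rule where that ratio reached 2-fold and had the same sign on plates 3, 4 and 5. TPM keep no read number, and the number of genes above 0 stood in for depth. Its median was 4823, 5348 and 5396 in the Epi, VE and ExE block, and 9093.5, 8537 and 8699 in ESCs, iTSC and iXEN cells. All 7 markers of each lineage were highest in the block named after it, with a summed mean of 33.8 TP10k of Epi markers in the Epi block, 15.5 of VE markers in the VE block and 4.75 of ExE markers in the ExE block. By the scaled sum of these markers, 306 of 314, 308 of 315 and 291 of 353 cells were led by the list of their own block. By the plain sum, 314, 290 and 205 cells were, so the ExE block was the least uniform by both sums. In that block 123 cells were led by Epi markers by the plain sum and 39 by the scaled sum. *Zfp42* made up 2.10 of its 2.89 TP10k of Epi markers, and averaged 1.95 TP10k in iTSC. Of the 5 markers of trophoblast giant cells, which copy their DNA without dividing, 1 passed the minimum of 0.1 TP10k. This was *Hand1*, at 0.838 TP10k in the ExE block and 1.90 in iTSC, which made up nearly all of the list's sum there, 0.841 and 1.90 TP10k. The highest mean of the other 4 in any group was 0.00362 TP10k, that of *Ctsq* in the VE block. The paper counts *Hand1* among key trophoblast genes, found mainly in its ExE-like Subcluster 1. Whether giant cells were present was not tested, and a list with 4 markers near 0 in every group cannot show it. The 6 fibroblast markers summed to at most 0.0583 TP10k in any group.

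**Figure D1:**
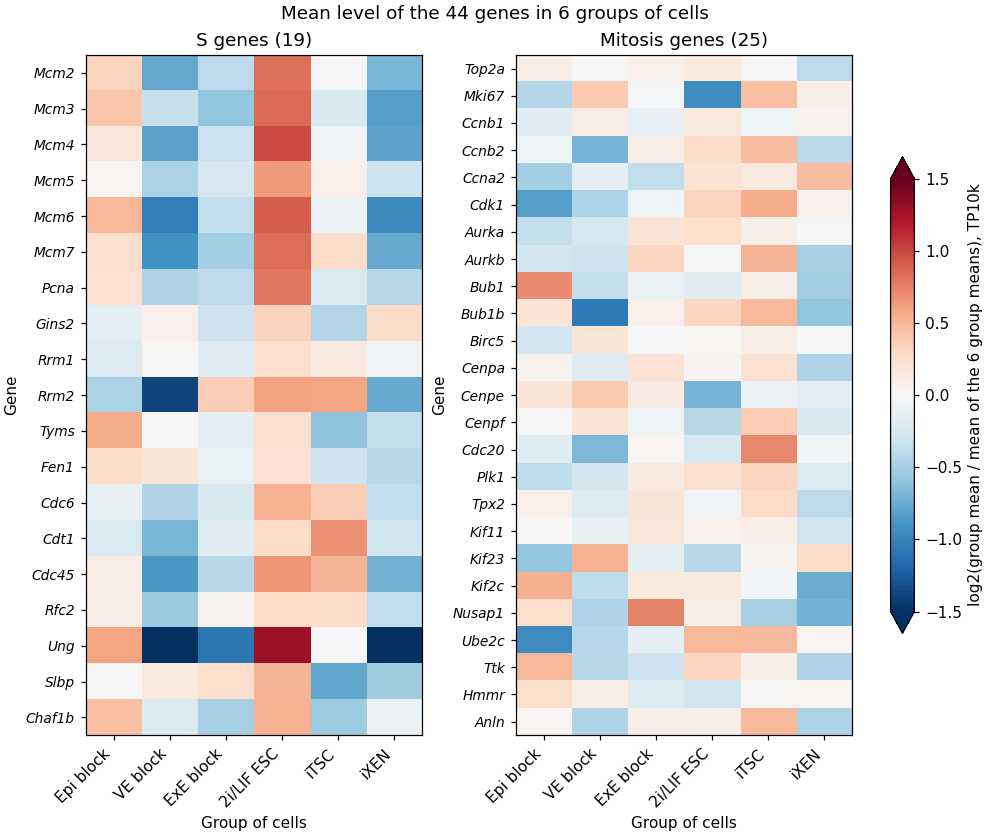
Mean level of each of the 19 S genes (left) and 25 mitosis genes (right) in the 6 groups of cells, as the log2 of the group mean over the mean of the 6 group means (TP10k), from blue (low) to red (high). 16 of the 19 S genes are reddest in 2i/LIF ESCs and 11 are bluest in the VE block, while 11 of the 25 mitosis genes are reddest in iTSC.

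Most S genes had their highest level in the pluripotent groups. Among the 3 blocks, 14 of the 19 S genes had their highest mean in the Epi block, 3 in the ExE block and 2 in the VE block, and 12 had their lowest in the VE block. Over all 6 groups, 16 S genes were highest in 2i/LIF ESCs, *Tyms* and *Fen1* in the Epi block and *Cdt1* in iTSC. In the heat map of mean levels, the mitosis genes did not follow this order. Their highest mean among the 3 blocks lay in the ExE block for 12, in the VE block for 7 and in the Epi block for 6, and over all 6 groups in iTSC for 11. Among the 3 blocks 13 were lowest in the VE block, and among the 3 cultures 15 were highest in iTSC. Over all 6 groups, 0 were lowest in the ExE block or in iTSC. Within the Epi block, S genes ranged from 0.579 TP10k for *Cdc6* to 4.73 TP10k for *Tyms*, and mitosis genes from 0.266 TP10k for *Mki67* to 5.89 TP10k for *Ccnb1*. Every member was above 0 in some cells of each group.

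The first comparison asks how the Epi block differed from the extraembryonic VE block. S genes were higher in the Epi block, with a median log2 ratio of 0.64 over the 19 genes (0.54, 0.60 and 0.77 on plates 3, 4 and 5), against 0.05 over all 8508 genes. 16 S genes were higher and 3 lower. *Mcm2*, *Mcm6*, *Mcm7* and *Ung* passed the 2-fold rule in this direction, 4 of 19 beside 10.2% of all genes, and no S gene passed it in the other, beside 12.1% of all genes. Mitosis genes had a median of 0.085 (0.046, 0.18 and -0.00072), with 14 higher and 11 lower, so that the median lay close to that of all genes. *Bub1* and *Bub1b* passed the rule as higher in the Epi block and *Kif23* as lower. *Bub1* fell short of 2-fold without plate 3 (0.95) or plate 5 (0.97), and *Kif23* without plate 5 (-0.77), on the log2 scale.

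Against the ExE block, S genes were again higher in the Epi block, by less. Their median log2 ratio was 0.46 (0.58, 0.38 and 0.34 on the 3 plates), that of all genes -0.08, and 15 of 19 were higher. *Ung* passed the 2-fold rule, 1 of 19 beside 4.83% of all genes, and no S gene passed as lower, beside 9.47%. The median of the mitosis genes was -0.15 (-0.06, -0.20 and -0.26), with 8 higher and 17 lower, and none of the 25 passed in either direction. Both comparisons share the cells of the Epi block and are not independent.

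Between the VE and the ExE block, the medians of both lists were below 0, as was that of all genes. The S genes had a median log2 ratio of -0.21 (-0.09, -0.16 and -0.27) with 13 of 19 lower, and the mitosis genes one of -0.28 (-0.30, -0.24 and -0.20) with 17 of 25 lower, against -0.11 (-0.12, -0.12 and -0.09) over all genes. The mitosis genes thus lay below all genes on each plate. The S genes did so on plates 4 and 5 and not on plate 3, and lay close to all genes. *Rrm2* was the S gene that passed the 2-fold rule, and *Bub1b* and *Nusap1* were the mitosis genes, all 3 lower in the VE block, where 8.27% of all genes passed. None passed as higher, beside 5.96% of all genes. *Bub1b* fell short of 2-fold without plate 4 (-0.95) or plate 5 (-0.998), and *Nusap1* without plate 3 (-0.997).

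**Figure D2:**
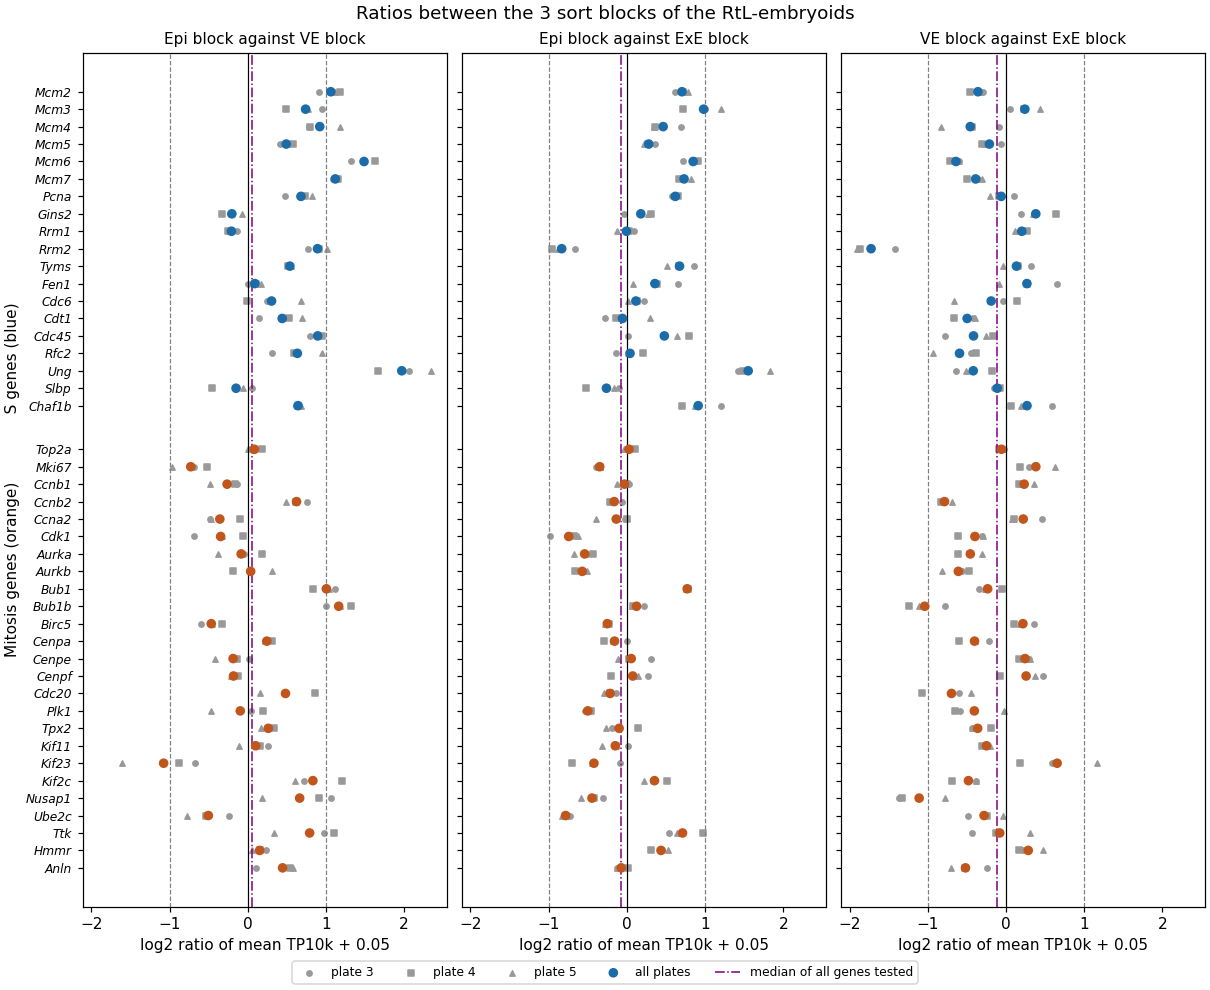
Log2 ratio of mean TP10k + 0.05 between the 3 blocks for each S gene (blue) and mitosis gene (orange), with grey symbols for plates 3, 4 and 5, dashed lines at 2-fold and a purple line at the median of all genes tested. In the left panel most blue points lie to the right of 0 and *Ung* lies farthest, at 1.97, while orange points spread to both sides.

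Among the S genes, the subunits of the MCM helicase, which unwinds the DNA ahead of the fork, were all 6 higher in the Epi block than in both other blocks on each plate. *Mcm6* averaged 2.70 (2.37, 2.89 and 2.83) TP10k in the Epi block on plates 3, 4 and 5 in turn, 0.932 (0.917, 0.905 and 0.979) in the VE block and 1.48 (1.42, 1.52 and 1.51) in the ExE block. Its means were 3.60 in ESCs, 1.80 in iTSC and 0.989 in iXEN cells. The plate means of the 3 blocks did not overlap, and the log2 ratio of Epi to VE block was 1.49 (1.32, 1.62 and 1.48), that of Epi to ExE block 0.85 (0.72, 0.91 and 0.89) and that of VE to ExE block -0.64 (-0.60, -0.72 and -0.60). *Mcm2* averaged 2.17 (2.10, 2.26 and 2.14) TP10k in the Epi, 1.01 (1.10, 0.967 and 0.962) in the VE and 1.31 (1.35, 1.35 and 1.22) in the ExE block, and *Mcm7* had similar levels, with 2.53 (2.58, 2.53 and 2.48), 1.14 (1.19, 1.11 and 1.11) and 1.50 (1.54, 1.58 and 1.39). *Mcm3* was the MCM gene with its lowest mean in the ExE instead of the VE block, though the plates of these blocks overlapped. It averaged 3.78 (3.58, 3.33 and 4.43) TP10k in the Epi, 2.25 (1.83, 2.37 and 2.59) in the VE and 1.89 (1.77, 2.02 and 1.90) in the ExE block, with a log2 ratio of Epi to ExE block of 0.98 (0.996, 0.71 and 1.20). *Mcm4* averaged 1.28 (1.29, 1.09 and 1.48), 0.655 (0.727, 0.606 and 0.627) and 0.917 (0.777, 0.835 and 1.15) TP10k in the same order, and *Mcm5* 2.50 (2.45, 2.60 and 2.44), 1.76 (1.82, 1.72 and 1.73) and 2.05 (1.90, 2.15 and 2.10).

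The factors that load and start the helicase did not share 1 order of the blocks. *Cdt1*, which brings the MCM complex to origins, averaged 1.46 (1.35, 1.54 and 1.48) TP10k in the Epi, 1.06 (1.22, 1.06 and 0.898) in the VE and 1.52 (1.64, 1.71 and 1.19) in the ExE block, and its plate means in the Epi and the ExE block overlapped. Its level in iTSC, 2.75 TP10k, was the highest of the 6 groups. *Cdc6*, its partner in loading, had the lowest level of the S genes in the Epi block, with 0.579 (0.516, 0.537 and 0.682) TP10k against 0.460 (0.425, 0.542 and 0.407) in the VE and 0.531 (0.438, 0.488 and 0.673) in the ExE block, and the 3 blocks overlapped. *Cdc45*, part of the active helicase, averaged 0.688 (0.571, 0.770 and 0.716), 0.347 (0.308, 0.373 and 0.362) and 0.479 (0.567, 0.423 and 0.442) TP10k in the Epi, VE and ExE block. *Gins2*, a subunit of the GINS complex, went the other way, with 1.83 (1.74, 1.71 and 2.04) TP10k in the Epi, 2.12 (2.04, 2.16 and 2.15) in the VE and 1.61 (1.78, 1.37 and 1.68) in the ExE block. The log2 ratio of VE to ExE block was 0.38 (0.19, 0.64 and 0.35), the largest of the S genes in this direction.

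At the fork, *Pcna* averaged 4.43 (3.91, 4.62 and 4.72) TP10k in the Epi block, 2.74 (2.81, 2.76 and 2.66) in the VE block and 2.86 (2.60, 2.93 and 3.08) in the ExE block, and 6.50, 3.22 and 2.83 in ESCs, iTSC and iXEN cells. Each plate mean of the Epi block lay above those of the other blocks, with a log2 ratio of 0.68 (0.47, 0.74 and 0.82) to the VE and 0.62 (0.58, 0.65 and 0.61) to the ExE block, while VE and ExE block overlapped. *Rfc2*, a subunit of the clamp loader, averaged 3.30 (2.73, 3.27 and 3.89) TP10k in the Epi, 2.11 (2.18, 2.14 and 1.99) in the VE and 3.21 (3.00, 2.82 and 3.84) in the ExE block. *Fen1*, the nuclease that trims Okazaki fragments, lay between 0.588 TP10k in iXEN cells and 0.953 (0.961, 0.912 and 0.987) TP10k in the Epi block, with overlap between the blocks. *Chaf1b* belongs to the chromatin assembly factor that places histones on new DNA. It averaged 1.72 (1.67, 1.77 and 1.73) TP10k in the Epi, 1.08 (1.07, 1.12 and 1.06) in the VE and 0.891 (0.696, 1.07 and 0.921) in the ExE block, where the last pair overlapped narrowly.

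Of the nucleotide enzymes, the 2 subunits of ribonucleotide reductase behaved differently. *Rrm2*, the regulated subunit, averaged 2.91 (2.96, 2.67 and 3.09) TP10k in the Epi, 1.54 (1.72, 1.40 and 1.50) in the VE and 5.22 (4.69, 5.25 and 5.74) in the ExE block, and 6.16, 6.10 and 2.40 in ESCs, iTSC and iXEN cells. The blocks did not overlap on any plate, and the log2 ratio of VE to ExE block was -1.72 (-1.42, -1.87 and -1.90). *Rrm1*, the other subunit, lay in a narrow range, with 1.69 (1.67, 1.67 and 1.71) TP10k in the Epi, 1.96 (1.84, 2.01 and 2.03) in the VE and 1.69 (1.57, 1.65 and 1.87) in the ExE block, and 2.29, 2.15 and 1.87 in the cultures. *Tyms*, thymidylate synthase, averaged 4.73 (4.63, 4.49 and 5.09) TP10k in the Epi, 3.24 (3.18, 3.13 and 3.45) in the VE and 2.95 (2.53, 2.81 and 3.54) in the ExE block, against 3.80, 2.12 and 2.51 in ESCs, iTSC and iXEN cells.

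*Ung*, the glycosylase that removes uracil from DNA, differed most among the S genes. It averaged 1.21 (1.28, 1.23 and 1.12) TP10k in the Epi block, 0.271 (0.270, 0.355 and 0.181) in the VE block and 0.379 (0.447, 0.407 and 0.279) in the ExE block, and 1.95, 0.804 and 0.195 in ESCs, iTSC and iXEN cells. All plate means of the Epi block were above 1 TP10k and all those of the other blocks below 0.5, and the log2 ratio was 1.97 (2.06, 1.66 and 2.34) to the VE and 1.55 (1.42, 1.48 and 1.83) to the ExE block. It was above 0 in 77.4% of the cells of the Epi, 32.7% of the VE and 44.8% of the ExE block, while the median number of genes was lowest in the Epi block. In the 2D cultures the order was the same, with the highest level in ESCs and the lowest in iXEN cells. *Slbp*, the protein that binds the stem-loop of histone mRNA, showed no such order, with 2.13 (2.09, 1.90 and 2.39) TP10k in the Epi, 2.37 (2.01, 2.63 and 2.49) in the VE and 2.56 (2.24, 2.76 and 2.69) in the ExE block, and 3.03, 1.24 and 1.48 in ESCs, iTSC and iXEN cells.

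The mitosis genes used most often as signs of proliferation did not separate the blocks in the way the S genes did. *Top2a*, the topoisomerase that untangles chromosomes, averaged 2.52 (2.06, 2.43 and 3.06) TP10k in the Epi, 2.37 (2.01, 2.13 and 3.06) in the VE and 2.47 (2.05, 2.26 and 3.15) in the ExE block, and 2.60, 2.36 and 1.80 in ESCs, iTSC and iXEN cells. Plate 5 was high in all 3 blocks, and the difference between plates was larger than that between blocks. *Mki67*, which encodes the proliferation antigen Ki-67, averaged 0.266 (0.214, 0.263 and 0.318) TP10k in the Epi, 0.474 (0.376, 0.400 and 0.667) in the VE and 0.352 (0.298, 0.347 and 0.415) in the ExE block. Here the Epi block was the lowest on each plate, with a log2 ratio of -0.73 (-0.69, -0.52 and -0.96) to the VE block, and 2i/LIF ESCs were lower still, at 0.189 TP10k, against 0.494 in iTSC and 0.388 in iXEN cells. Thus *Pcna* and *Mki67* ordered the groups differently.

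Of the kinases and cyclins that drive entry into mitosis, *Cdk1* was lowest in the Epi block. It averaged 3.27 (2.70, 3.37 and 3.72) TP10k in the Epi, 4.17 (4.36, 3.52 and 4.68) in the VE and 5.51 (5.40, 5.40 and 5.74) in the ExE block, and 7.29, 8.53 and 6.07 in ESCs, iTSC and iXEN cells. The log2 ratio of Epi to ExE block was -0.74 (-0.99, -0.67 and -0.62), although the plate means of Epi and VE block overlapped. Its cyclin *Ccnb1* was the mitosis gene with the highest mean in each block, with 5.89 (5.62, 5.67 and 6.36) TP10k in the Epi, 7.08 (6.20, 6.36 and 8.88) in the VE and 6.02 (5.51, 5.66 and 6.92) in the ExE block. *Ccnb2* averaged 2.43 (2.35, 2.14 and 2.79), 1.56 (1.37, 1.38 and 1.97) and 2.72 (2.46, 2.50 and 3.22) TP10k, and was the cyclin lowest in the VE block, whereas *Ccna2* averaged 1.46 (1.48, 1.59 and 1.31), 1.88 (2.09, 1.71 and 1.83) and 1.61 (1.50, 1.59 and 1.73). The Aurora kinases, which act on spindle and kinetochore, had their highest mean among the blocks in the ExE block. *Aurka* averaged 1.61 (1.64, 1.65 and 1.52), 1.71 (1.69, 1.46 and 1.99) and 2.36 (2.35, 2.25 and 2.47) TP10k in the Epi, VE and ExE block and *Aurkb* 1.21 (1.22, 1.09 and 1.31), 1.17 (1.21, 1.25 and 1.05) and 1.82 (1.80, 1.76 and 1.89). *Birc5*, which encodes survivin of the same complex as AURKB, was instead highest in the VE block, with 3.86 (4.11, 3.62 and 3.83) TP10k. *Plk1* averaged 0.901 (0.923, 0.867 and 0.913) TP10k in the Epi and 1.29 (1.36, 1.21 and 1.30) in the ExE block, with the VE block at 0.966 (0.892, 0.753 and 1.28).

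The genes of the spindle checkpoint had higher means in the Epi than in the VE block. *Bub1b*, which encodes BUBR1, an inhibitor of the anaphase-promoting complex, averaged 0.923 (0.901, 0.889 and 0.977) TP10k in the Epi, 0.384 (0.425, 0.326 and 0.402) in the VE and 0.842 (0.768, 0.836 and 0.928) in the ExE block. None of the plate means of the VE block overlapped with those of another block, and the log2 ratio was 1.16 (1.0, 1.32 and 1.18) for Epi to VE and -1.04 (-0.78, -1.24 and -1.11) for VE to ExE block. In the cultures it averaged 0.996 TP10k in ESCs, 1.12 in iTSC and 0.528 in iXEN cells, again lowest in the endoderm line. *Bub1*, a kinase of the same checkpoint, was high in the Epi block alone, with 1.39 (1.32, 1.22 and 1.63) TP10k against 0.667 (0.582, 0.663 and 0.768) in the VE and 0.793 (0.753, 0.691 and 0.939) in the ExE block, and 0.758, 0.906 and 0.593 in ESCs, iTSC and iXEN cells. Its log2 ratio was 1.01 (1.11, 0.84 and 1.03) to the VE and 0.77 (0.77, 0.78 and 0.76) to the ExE block. *Ttk*, the checkpoint kinase MPS1, averaged 0.480 (0.478, 0.505 and 0.457) TP10k in the Epi, 0.256 (0.219, 0.208 and 0.351) in the VE and 0.274 (0.313, 0.232 and 0.274) in the ExE block, and 0.427, 0.361 and 0.246 in the cultures. With *Cdc20* and *Ube2c* the anaphase-promoting complex marks its targets. *Cdc20* was also higher in the Epi than in the VE block, with its highest mean in the ExE block, whereas *Ube2c* was lower. *Cdc20* averaged 5.11 (5.00, 5.34 and 4.99), 3.65 (3.60, 2.93 and 4.49) and 5.94 (5.49, 6.21 and 6.14) TP10k in the Epi, VE and ExE block and reached 9.55 in iTSC, against 4.93 in ESCs and 5.62 in iXEN cells. *Ube2c* averaged 2.70 (3.38, 2.72 and 2.02), 3.84 (4.02, 3.97 and 3.50) and 4.67 (5.64, 4.71 and 3.61) TP10k, with a log2 ratio of Epi to ExE block of -0.78 (-0.73, -0.78 and -0.82), and 7.28, 7.26 and 5.30 TP10k in ESCs, iTSC and iXEN cells. Plate 3 was the highest and plate 5 the lowest in each block, the opposite of *Top2a*.

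Motor and spindle proteins went in both directions. *Kif23*, a kinesin of the midzone needed for cytokinesis, was highest in the VE block, with 2.04 (1.66, 1.72 and 2.82) TP10k against 0.940 (1.02, 0.914 and 0.890) in the Epi and 1.28 (1.09, 1.51 and 1.23) in the ExE block. No plate overlapped, but the log2 ratio of Epi to VE block varied, at -1.08 (-0.67, -0.88 and -1.61). In ESCs, iTSC and iXEN cells the gene averaged 1.06, 1.46 and 1.73 TP10k. *Kif2c*, a kinesin that takes microtubules apart at kinetochores, was highest in the Epi block at 0.759 (0.724, 0.797 and 0.754) TP10k, against 0.404 (0.421, 0.318 and 0.479) in the VE and 0.583 (0.565, 0.544 and 0.643) in the ExE block, and averaged 0.581, 0.512 and 0.313 in the cultures. *Nusap1*, which binds spindle microtubules, was highest in the ExE block, with 0.860 (0.809, 0.709 and 1.07) TP10k against 0.618 (0.646, 0.518 and 0.692) in the Epi and 0.372 (0.284, 0.252 and 0.604) in the VE block, and 0.550, 0.364 and 0.313 in ESCs, iTSC and iXEN cells. Its log2 ratio of VE to ExE block was -1.11 (-1.36, -1.33 and -0.77). *Kif11*, the motor that pushes spindle poles apart, differed little, with 0.381 (0.425, 0.339 and 0.381), 0.352 (0.349, 0.297 and 0.415) and 0.428 (0.420, 0.378 and 0.486) TP10k in the Epi, VE and ExE block. Of the kinetochore genes, *Cenpe* averaged 0.505 (0.428, 0.522 and 0.560), 0.582 (0.423, 0.578 and 0.767) and 0.484 (0.337, 0.511 and 0.612) TP10k and *Cenpf* 0.676 (0.706, 0.593 and 0.730), 0.773 (0.818, 0.650 and 0.858) and 0.639 (0.574, 0.691 and 0.655), so that the blocks overlapped. *Cenpa*, the histone variant of centromeres, had its lowest mean among the blocks in the VE block, 3.03 (3.23, 2.85 and 3.01) TP10k, and its highest in the ExE block, 4.02 (3.77, 4.32 and 3.97). *Tpx2*, *Hmmr* and *Anln* stayed between 0.456 and 1.09 TP10k in the 3 blocks.

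Other genes of the same pathways, written down as lists of 43 replication genes (42 above the minimum) and 51 mitosis genes, were described in the same way. The other replication genes had a median log2 ratio of 0.59 for Epi to VE block and 0.45 for Epi to ExE block, against 0.64 and 0.46 for the S genes. As higher in the Epi block, 11 and 5 of the 43 genes passed the 2-fold rule, beside 10.2% and 4.83% of all genes, and 0 passed as lower, beside 12.1% and 9.47%. *Pold2*, a subunit of the lagging-strand polymerase, was the highest with 1.36 (2.94 TP10k in the Epi against 1.12 in the VE block), and *Tk1*, thymidine kinase, the lowest with -0.71. For Epi to ExE block the extremes were *Rfc5* at 1.13 and *Asf1b* at -0.56. The other mitosis genes had medians of 0.26 and 0.10 in these comparisons, against 0.085 and -0.15 for the mitosis members, so that the sign differed for Epi to ExE block. Of the 51 genes, 7 and 1 passed as higher and 0 and 2 as lower. Beside the same shares of all genes, the 7 are near the background and the other counts below it. *Mybl2*, a transcription factor that acts with the MuvB complex on mitotic genes, averaged 6.46 TP10k in the Epi block against 2.00 in the VE and 2.40 in the ExE block, and *Cdca8*, of the same complex as AURKB, had the lowest ratio of Epi to ExE block, at -1.59. For VE to ExE block the medians were -0.15 and -0.26, with 1 higher and 2 lower of the replication genes and 0 higher and 4 lower of the mitosis genes. All 4 counts are near or below the shares of all genes, 5.96% as higher and 8.27% as lower. In the promoters of the other replication and mitosis genes, E2F letters stood in 29.5% and 10.4%, CHR letters in 15.9% and 68.8%, CCAAT in 43.2% and 72.9%, and CHR with CCAAT in 6.82% and 60.4%. For the replication genes the last pair of shares lay nearer to those of all promoters, 37.6% and 6.53%, than to those of the S genes, 61.1% and 16.7%.

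The second question was how each block differed from the 2D culture of the same ESC line. In the Epi block against 2i/LIF ESCs the S genes were lower, with a median log2 ratio of -0.49 (-0.56, -0.49 and -0.41 on plates 3, 4 and 5) against 0.10 over all genes, and 17 of 19 were lower. *Rrm2* passed the 2-fold rule, at -1.07 (-1.04, -1.19 and -0.98), 1 of 19 beside 3.56% of all genes, and none passed as higher, beside 5.16%. *Tyms* had the largest ratio in the other direction, 0.31 (0.28, 0.24 and 0.42), and *Mcm4*, after *Rrm2*, the lowest, -0.80 (-0.79, -1.03 and -0.61). *Mcm6* and *Pcna* had log2 ratios of -0.41 (-0.59, -0.31 and -0.34) and -0.55 (-0.73, -0.49 and -0.46). The mitosis genes had a median of -0.05 (-0.09, -0.16 and -0.03), with 11 higher and 14 lower, and one of 0.015 without plate 4 and -0.13 without plate 5. *Cdk1*, at -1.14 (-1.42, -1.10 and -0.96), and *Ube2c*, at -1.42 (-1.10, -1.40 and -1.83), passed as lower, while *Bub1*, at 0.83 (0.76, 0.65 and 1.05), and *Cenpe*, at 0.77 (0.56, 0.82 and 0.91), had the largest ratios in the other direction and did not pass. *Top2a* had a log2 ratio of -0.042 (-0.33, -0.094 and 0.23) and *Mki67* one of 0.40 (0.14, 0.39 and 0.62).

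In the VE block against iXEN cells both lists lay close to all genes. The median log2 ratio was -0.08 (-0.09, -0.08 and -0.09) for S genes and 0.15 (-0.06, -0.06 and 0.35) for mitosis genes, against 0.04 over all genes. Without plate 5 the median of the mitosis genes was -0.07. None of the 44 members passed the 2-fold rule, beside 1.77% of all genes as higher and 3.1% as lower. *Slbp*, at 0.66 (0.43, 0.80 and 0.73), and *Fen1*, at 0.56 (0.66, 0.49 and 0.53), were the highest S genes and *Rrm2*, at -0.62 (-0.47, -0.76 and -0.66), and *Cdt1*, at -0.38 (-0.19, -0.39 and -0.61), the lowest. *Mcm6* and *Pcna* differed by -0.081 (-0.10, -0.12 and -0.013) and -0.045 (-0.011, -0.039 and -0.09) on this scale. Of the mitosis genes, *Cenpe* and *Cenpf* had log2 ratios of 0.47 (0.055, 0.46 and 0.84) and 0.42 (0.49, 0.18 and 0.56), and *Cdc20* and *Ccna2* of -0.62 (-0.64, -0.93 and -0.32) and -0.59 (-0.44, -0.72 and -0.63). *Top2a* and *Mki67* gave 0.39 (0.16, 0.24 and 0.75) and 0.26 (-0.04, 0.041 and 0.71), with the highest value on plate 5 for both.

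The ExE block against iTSC gave lower values for both lists, with a median log2 ratio of -0.28 (-0.38, -0.26 and -0.19) and 14 of 19 lower for S genes, and of -0.18 (-0.25, -0.24 and -0.11) and 19 of 25 lower for mitosis genes, against 0.09 over all genes. *Slbp*, at 1.01 (0.82, 1.12 and 1.08), and *Nusap1*, at 1.13 (1.05, 0.87 and 1.43), passed the 2-fold rule as higher in the ExE block, 1 member of each list beside 6.5% of all genes. *Slbp* fell short of 2-fold without plate 4 (0.96) or plate 5 (0.98), and *Nusap1* without plate 5 (0.97). No member passed as lower, beside 4.76%, and *Ung* came closest with -0.99 (-0.78, -0.90 and -1.38). *Cdc45* followed at -0.85 (-0.63, -1.01 and -0.96), and *Tyms* was the second highest S gene at 0.47 (0.25, 0.40 and 0.73). Of the mitosis genes, *Cdc20*, at -0.68 (-0.79, -0.62 and -0.63), and *Ube2c*, at -0.63 (-0.36, -0.62 and -0.999), were the lowest with the same sign on each plate and *Kif2c*, at 0.17 (0.13, 0.08 and 0.30), came next to *Nusap1* among the higher ones with such a sign. *Mcm6*, *Pcna* and *Top2a* had log2 ratios of -0.28 (-0.34, -0.24 and -0.25), -0.16 (-0.30, -0.13 and -0.063) and 0.066 (-0.20, -0.06 and 0.41), and *Mki67* one of -0.44 (-0.65, -0.46 and -0.23). The other replication and mitosis genes gave medians of -0.07 and 0.12 for Epi block to ESCs, 0.09 and 0.08 for VE block to iXEN cells and -0.26 and -0.18 for ExE block to iTSC. Against ESCs, the replication genes outside the 19 members lay below all genes, by less than the S genes. Their median was -0.07 (-0.20, -0.24 and 0.06 on plates 3, 4 and 5), that of all genes 0.10 (0.10, 0.06 and 0.09). Of the 43 genes, 3 passed the 2-fold rule as lower, beside 3.56% of all genes, and 1 as higher, beside 5.16%. Depth as the number of genes above 0 differed between 3D and 2D in all 3 comparisons, and its part in the ratios was not tested. Medium, plate and, for the Epi block, DOX differed as well, and their parts cannot be told apart from that of 3D culture.

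**Figure D3:**
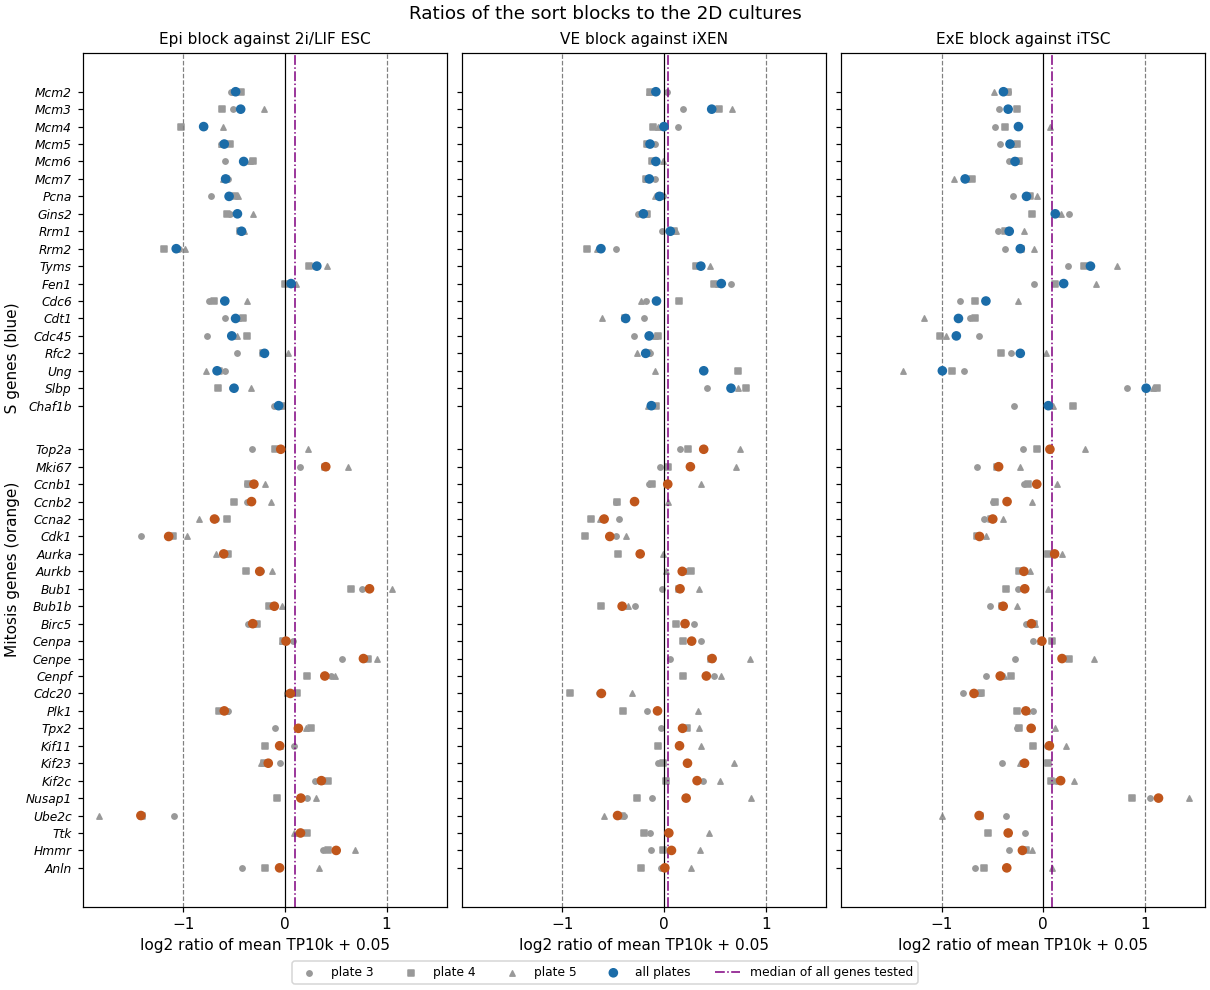
Log2 ratio of mean TP10k + 0.05 of each block to its 2D culture for each S gene (blue) and mitosis gene (orange), with grey symbols for plates 3, 4 and 5, dashed lines at 2-fold and a purple line at the median of all genes tested. In the panel of Epi block against 2i/LIF ESC 17 of 19 blue points lie to the left of 0, and in the panel of VE block against iXEN no point of all plates reaches 2-fold.

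Single cells were then described by the summed level of each list. The S sum had a median of 42.2 TP10k in the Epi block (10th to 90th percentile 27.5 to 59.5), 27.4 in the VE block (15.2 to 42.3) and 33.5 in the ExE block (11.1 to 58.5). In ESCs, iTSC and iXEN cells the medians were 59.1, 39.8 and 27.1 TP10k. The VE block and iXEN cells were the lowest of the blocks and of the cultures. The mitosis sum had a median of 35.3 TP10k in the Epi block (18.2 to 80.9), 38.3 in the VE block (15.3 to 85.9) and 43.0 in the ExE block (3.93 to 108.5), and 49.3, 55.6 and 43.5 in ESCs, iTSC and iXEN cells. The ExE block had the widest range of both sums among the blocks.

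**Figure D4:**
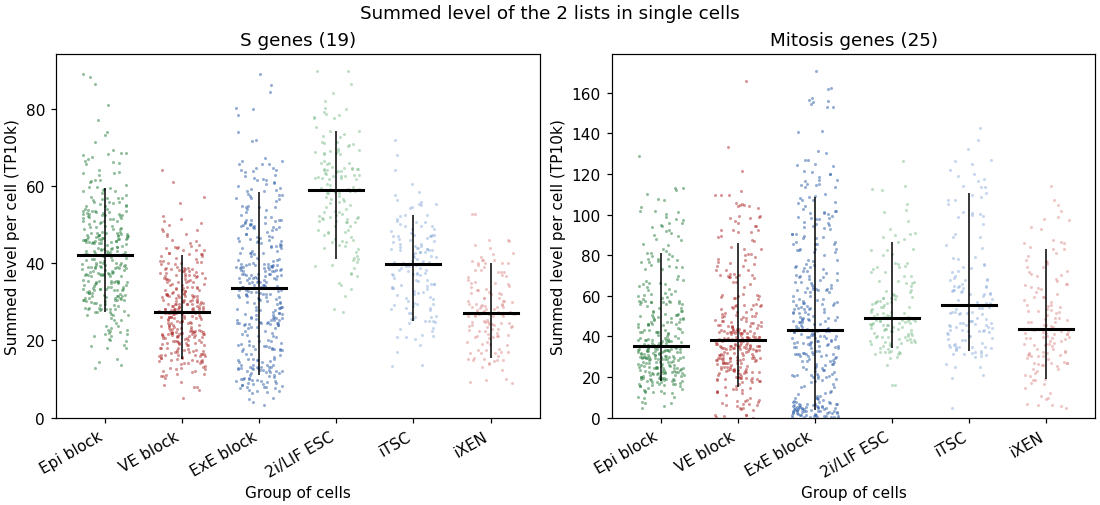
Summed level of the 19 S genes and of the 25 mitosis genes per cell in the 6 groups, in TP10k on a linear axis, each point a cell, with a bar at the median and a line from the 10th to the 90th percentile. The ExE block reaches lowest in the mitosis sum, with a 10th percentile of 3.93 TP10k against 18.2 in the Epi block and 15.3 in the VE block.

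In the ExE block a part of the cells had few mitosis transcripts. At most 3 of the 25 mitosis genes were above 0 in 27 of 353 cells (7.65%, exact 95% interval 5.10% to 10.9%), in 7 of 315 cells of the VE block (2.22%), in 0 of 314 of the Epi block, where the interval reaches 1.17%, and in none of the 2D cells. Intervals cover counting error only. With a limit of 10 TP10k on the mitosis sum, set after the values had been seen, 76 of 353 cells of the ExE block fell below (21.5%, exact 95% interval 17.4% to 26.2%). They were 29, 27 and 20 cells on plates 3, 4 and 5, and 10 cells lay within 2 TP10k of the limit. Below the same limit were 22 cells of the VE block (6.98%), 6 of the Epi block (1.91%), 7 iXEN cells, 1 iTSC cell and 0 ESCs. Of the 76 cells, 57 were led by ExE markers, 10 by Epi markers and 9 by VE markers. Among cells of the block led by ExE markers the share was 19.6% (57 of 291). The paper describes cells without *Pcna*, *Top2a*, *Mcm6* and *Mki67* in its ExE-like Subcluster 2. By its assignment of cell cycle phases, G1 was the most frequent phase in that subcluster and rare in Subcluster 1. Cells were not assigned to these subclusters here.

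These 76 cells were also low in S genes, which did not enter the limit. Their S sum had a median of 12.5 TP10k (10th to 90th percentile 7.33 to 24.9), against 37.2 (19.2 to 60.8) in the other cells of the ExE block. They had 10 S genes above 0 in the median, against 17, and 4 mitosis genes, against 23. All 19 S genes had a lower mean in the 76 cells, with a median log2 ratio of -1.26 against 0.011 over all genes tested. *Rrm2* had the largest difference, with 0.434 TP10k in the 76 cells and 6.53 in the others, and was above 0 in 38.2% and 96.4% of them. *Cdc6* averaged 0.0881 against 0.652 TP10k, *Cdc45* 0.0694 against 0.591 and *Pcna* 1.08 against 3.35. Least apart were *Gins2*, with 1.21 against 1.72 TP10k, *Slbp*, with 1.94 against 2.73, and *Mcm2*, with 0.975 against 1.40, and these 3 genes were above 0 in most of the 76 cells. Of the other replication genes, 43 of 43 were lower as well, with a median log2 ratio of -1.06. The giant cell marker *Hand1* averaged 0.376 TP10k in the 76 cells and 0.965 in the others, and the other 4 giant cell markers were each found in at most 3 of the 76 cells. The median S sum on plates 3, 4 and 5 was 12.4, 12.4 and 12.9 TP10k below the limit and 37.3, 36.1 and 38.6 above it. Cells below the limit were fewer in the other groups, and their median S sum differed between groups. It was 15.9 TP10k in the 7 iXEN cells, against 27.3 in the other iXEN cells, 24.2 against 27.8 in the 22 cells of the VE block and 46.2 against 42.0 in the 6 cells of the Epi block. Within the VE block it was 23.3, 27.9 and 14.9 TP10k on plates 3, 4 and 5, and the 7 VE cells with at most 3 mitosis genes had a mean S sum of 17.2 TP10k against 28.2. A low S sum was thus also measured outside the ExE block. The low cells of the ExE block had a median of 4961 genes above 0, against 5496, and a summed level of ExE markers of 1.47 TP10k against 4.22, whose part in the difference was not tested. When cells below the limit were left out of every group, the median log2 ratio of mitosis genes in the ExE block against iTSC was 0.14 in place of -0.18, and that of S genes -0.09 in place of -0.28. The median for mitosis genes between VE and ExE block became -0.52 and between Epi and ExE block -0.44. Since these cells were chosen by the mitosis genes, the values without them describe the rest of the cells and test nothing.

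**Figure D5:**
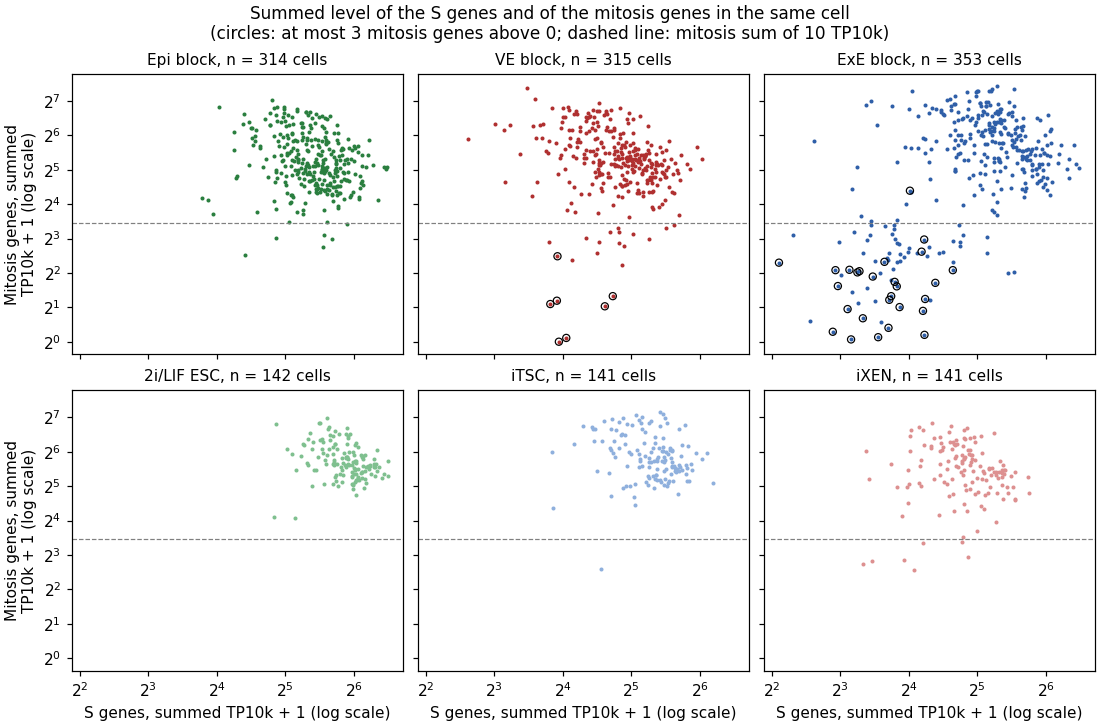
Summed level of the S genes (x axis) and mitosis genes (y axis) in the same cell, TP10k + 1 on log scales, in 1 panel per group, with the dashed line at a mitosis sum of 10 TP10k and circles around cells with at most 3 mitosis genes above 0. In the ExE block 76 cells lie below the line, mostly toward low S sums, while ESCs show no cell below it. The line was set after the values had been seen.

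Across the cells of a group, pairs of mitosis genes had higher mean correlations than pairs of S genes. The mean Pearson r between pairs of mitosis genes, on log2(TP10k + 1), was 0.22 over the 314 cells of the Epi block, 0.33 over the 315 of the VE block, 0.28 in 142 ESCs, 0.34 in 141 iTSC cells and 0.43 in 141 iXEN cells. For pairs of S genes it was 0.11, 0.14, 0.26, 0.21 and 0.24, and between genes of different lists it lay between -0.09 and -0.03. In the ExE block they were 0.49 for mitosis genes, 0.27 for S genes and, as the only value above 0, 0.12 between lists. The r between the log sums of both lists was 0.55 there, and between -0.25 (ESCs) and 0.04 (iXEN cells) in the other groups. Above a mitosis sum of 10 TP10k it was -0.15 in the ExE block, -0.40 in the VE block and -0.24 in iXEN cells. In cells of the ExE block with over 3 mitosis genes above 0 it was 0.43. Cells of a group share library plates, the scaling to a fixed sum and the noise of sparse values, and the coefficients are a description. *Ccnb1* followed the rest of its list closely, with r of 0.73 in the Epi block, 0.68 in the VE block, 0.61 in ESCs, 0.81 in iTSC and 0.68 in iXEN cells. *Rrm2* did so among the S genes in ESCs, at 0.72, but less in the Epi block, at 0.38. *Tyms*, the S gene highest in the Epi block, hardly followed the other S genes there, with r of 0.06, and in iTSC, with r of -0.0004.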

How the data were processed

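Single cells were sorted into wells and their mRNA was copied along its full length by SMART-seq2, which adds no molecular identifiers. The authors demultiplexed the reads with bcl2fastq 2.20, pseudoaligned them to GRCm38 transcripts with kallisto, summed transcripts per gene and filtered mitochondrial, ribosomal and pseudogenes, and they deposited TPM for 20,999 genes. Wells in which 2500 or more genes had a TPM above 0 entered, each scaled to 10,000 per cell. A minimum of reads, as the authors set it, was not used here. No cells had identical values, and no doublet caller was run. Blocks were taken from the well columns of the sort plates and checked against 7 markers per lineage. Groups were compared by log2 ratios of means with 0.05 TP10k added. Each condition is 1 sample, so no test was made. Shares carry exact Clopper-Pearson intervals at 95%.

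The members and lists were chosen with earlier results of these data known. Levels in every group are given for *Mcm6*, *Pcna*, *Top2a* and *Mki67*. Per comparison and list, the 2 members with the largest ratio in each direction and the same sign on plates 3, 4 and 5 were also named. For these, levels or ratios are given, but not in every group for each gene. The limit of 10 TP10k on the mitosis sum and the genes named for the cells below it were chosen after seeing the values. Calculations used Python 3.11.15, numpy 2.4.6, pandas 2.3.3 and scipy 1.17.1. The 2-fold rule was tried on cells of the Epi block split at random, with some genes multiplied by known factors beyond 2-fold. That trial does not bear on the smaller list medians, on ratios near 2-fold or on genes of low level. Alternatives were another minimum of genes, a window of genes per cell, another pseudocount, unscaled TPM, median-of-ratios size factors, mean log values, leaving out the highest cells of each gene, cells led by their block's markers, no filter on low values and each plate left out in turn.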

Additional observations from a re-analysis of the deposited data

Results flagged for a closer look

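*Slbp*, which encodes the protein that binds the stem-loop of histone mRNA, differed from its 2D culture in opposite directions in different lineages. Its log2 ratio was -0.50 in the Epi block against 2i/LIF ESCs, 0.66 in the VE block against iXEN cells and 1.01 in the ExE block against iTSC, each with the same sign on plates 3, 4 and 5. Among the 44 members and 132 pairs of lineages looked at, *Slbp* was the 1 member with opposite signs of at least 0.5 on the log2 scale. Its ratio in the Epi block, -0.5009, only just passed this limit and was near the median of the S genes in that comparison, -0.49. The difference between the lineages was not tested, since each culture is 1 sample.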

How the results depend on the processing

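No paired analysis was possible because each condition is 1 sample. TPM keep no read number, so what depth limits could not be computed, and 21 ESCs had between 5000 and 8500 genes above 0. Of the 12 median log2 ratios, 9 kept their sign under all 14 alternatives, 1 of which, the minimum of 0.1 TP10k applied to the members, leaves them as they are because all 44 pass it. With the median of all genes subtracted, the S medians and the mitosis median of VE to ExE block kept their sign under all 14. The mitosis median of Epi to ExE block then kept it under 11 and the other mitosis medians under 13. No member that passed the 2-fold rule changed sign, but of the 16 such values 1, that of *Rrm2* between VE and ExE block, reached 2-fold under all 14. Of the others, *Bub1* (Epi to VE block) reached it under 6, *Slbp* (ExE block to iTSC) under 7, *Bub1b* (VE to ExE block) under 8, *Nusap1* under 10 in both of its comparisons, *Kif23* under 11, and the rest under 12 or 13. The larger pseudocount or mean log2 values took *Mcm2*, *Mcm6*, *Mcm7*, *Ung* and *Bub1b* (Epi to VE block) below it. Against ESCs, *Cdk1* moved from -1.14 to -0.69 and *Ube2c* from -1.42 to -0.64 in cells with 5000 to 8500 genes, and *Rrm2* to -0.97 with the pseudocount and -0.996 with TPM as deposited. The alternatives of cells led by their block's markers by the scaled sum and of cells above a mitosis sum of 10 TP10k were added after seeing the data. Where a value moved, the cause was not tested.

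For S genes between Epi and VE block, the median of 0.64 became 0.52 in cells with 5000 to 8500 genes, 0.49 with a pseudocount of 0.5 TP10k and 0.41 as a difference of mean log2(TP10k + 1), which shrinks low values. Between Epi and ExE block, 0.46 became 0.28 with that pseudocount, 0.26 as mean log2, 0.29 and 0.33 in cells led by their block's markers by the plain and the scaled sum, and 0.23 without cells of a mitosis sum under 10 TP10k. Between VE and ExE block, -0.21 became -0.080 with median-of-ratios size factors, -0.049 as mean log2, -0.41 and -0.33 in cells led by their markers (plain, scaled) and -0.42 without cells of low mitosis sum. Leaving out 1 plate gave -0.30 without plate 4.

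The S genes of the Epi block against ESCs moved from -0.49 to -0.58 in cells with 5000 to 8500 genes, -0.39 with the larger pseudocount, -0.62 with size factors and -0.61 without the highest 5% of cells. For VE block against iXEN, -0.08 became -0.10 with at least 4000 genes, -0.14 with 5000 to 8500, -0.056 with the pseudocount, -0.075 with TPM as deposited, -0.15 with size factors, -0.10 as mean log2, -0.14 without the highest 5%, -0.072 and -0.075 in cells led by their markers (plain, scaled), -0.11 without cells of low mitosis sum, and -0.073 to -0.052 with a plate left out. For ExE block against iTSC, -0.28 became -0.089 with TPM as deposited, -0.39 with size factors, -0.41 without the highest 5% and -0.092 without cells of low mitosis sum.

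Mitosis genes between Epi and VE block, at 0.085, ranged from 0.021 without cells of low mitosis sum to 0.14 with TPM as deposited. With the median of all genes subtracted, the value was 0.036 and ranged from -0.030 to 0.10, so its sign against all genes is not settled. Between Epi and ExE block, -0.15 became -0.068 with size factors, -0.020 as mean log2, -0.091 without the highest 5%, -0.22 in cells led by their markers (plain sum), -0.44 without cells of low mitosis sum, and -0.062 without plate 5. Less the median of all genes it was -0.068 and ranged from -0.36 to 0.023, so its sign against all genes is not settled. Between VE and ExE block, -0.28 became -0.34 with TPM as deposited, -0.15 with size factors, -0.10 as mean log2, -0.42 in cells led by their markers (plain sum) and -0.52 without cells of low mitosis sum. For Epi block against ESCs, -0.05 became 0.12 with 5000 to 8500 genes, 0.031 with TPM as deposited, -0.18 with size factors, -0.19 as mean log2, -0.15 without the highest 5%, and -0.13 to 0.015 with a plate left out, so its sign is not settled. For VE block against iXEN, 0.15 became 0.24 with 5000 to 8500 genes, 0.070 with the pseudocount, 0.086 with size factors, -0.025 as mean log2, -0.0065 without the highest 5% and -0.072 without plate 5, so its sign is not settled either. For ExE block against iTSC, -0.18 became -0.067 with 5000 to 8500 genes, 0.00023 with TPM as deposited, -0.29 with size factors, -0.26 without the highest 5%, -0.10 in cells led by their markers (plain sum) and 0.14 without cells of low mitosis sum. Without the filter on low values, the share of all genes past the 2-fold rule fell in all 6 comparisons, for Epi to VE block from 10.2% to 6.13% as higher and from 12.1% to 6.02% as lower.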
